A study of Homo sapiens with 10 samples.

Results

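The comparison set HEK-293 cells silenced for the long noncoding RNA LINC00324 directly against HEK-293 cells silenced for LOC400043, and asked which microRNAs (miRNAs) differ in level between the targets. It used 8 of the 10 arrays of the series, 4 per target, together with 2 scramble arrays that served to put all arrays on 1 scale. HEK-293 is a human embryonic kidney line. Cells received a small interfering RNA (siRNA) at a final concentration of 10 nM with the reagent RNAiMax, and total RNA was read on Affymetrix miRNA-2_0 arrays, 1 array per sample. The groups were LINC00324 siRNA 1, LINC00324 siRNA 2, LOC400043 siRNA 1, LOC400043 siRNA 2 and scramble siRNA, with 2 arrays each that the labels call biological replicates. All groups were transfected in the same way, so the scramble cells carried an siRNA too. The labels do not say whether replicates were separate cultures, and the p-values then reflect no more than the spread between arrays. How far either transcript was silenced is not known here, since no probe set of these arrays reads them.

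Levels are log2 signals, and every difference is LINC00324 silencing minus LOC400043 silencing on the log2 scale, with its standard error (SE). The authors normalized the arrays of each target in a run of their own, each with the same 2 scramble arrays. Each miRNA on the LOC400043 arrays was put on the scale of the LINC00324 run by the shift of the scramble mean between the runs (median shift 0.08, SD 0.25). Target and run coincide, so a difference between targets and one between runs that the scramble arrays do not carry cannot be told apart. Of 1080 named human mature probe sets, 322 (29.8%) had a mean over the 10 arrays above a detection floor of 1.30, the 95th percentile of plant miRNA probe sets, and these were tested. Arrays of 1 group correlated across them with r between 0.973 and 0.988. Precision is limited by having only 2 arrays in a group. The median level over the 322 miRNAs lay between 3.45 and 4.17 on the LINC00324 arrays, between 3.99 and 4.05 on the LOC400043 arrays and at 4.40 and 4.18 on the scramble arrays. The lowest of these medians were those of the LINC00324 siRNA 2 arrays. RNA came from whole cultures, so a change in every cell and a change in the share of cells cannot be told apart.

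A miRNA is cut from a hairpin transcript as a short RNA that guides Argonaute proteins to messenger RNAs, and its seed, the bases from position 2 to 8, sets most of its pairing. Members of a family share a seed and often repress the same messages. Many miRNAs are transcribed together as clusters, such as the miR-17 clusters, which promote cell division under the control of MYC. Long noncoding RNAs can hold sites for miRNAs, and some are known to bind them or to lead to their decay.

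The sequences that carry the lower side of the comparison are given first, since many of the miRNAs that were lower with LINC00324 silencing than with LOC400043 silencing are rich in G and C. All sequences are mature miRNAs from RefSeq, build GRCh38.p14, 5′ to 3′, with the seed in capitals.
miR-1909-3p: cGCAGGGGccgggugcucaccg
miR-3188: aGAGGCUUugugcggauacgggg
miR-1910-5p: cCAGUCCUgugccugccgccu
miR-1231: gUGUCUGGgcggacagcugc
miR-3187-3p: uUGGCCAUggggcugcgcgg
miR-3185: aGAAGAAGgcggucggucugcgg
miR-3180-3p: uGGGGCGGagcuuccggaggcc
miR-3196: cGGGGCGGcaggggccuc
miR-550a-5p: aGUGCCUGagggaguaagagccc
miR-193a-5p: uGGGUCUUugcgggcgagauga
miR-498: uUUCAAGCcagggggcguuuuuc
The seed GGGGCGG is common to miR-3180-3p and miR-3196. miR-1909-3p is encoded at chr19:1816169-1816190 on the minus strand, within the bounds of the protein-coding gene REXO1. miR-3188 lies at chr19:18282129-18282151 on the plus strand, within the noncoding gene LOC124904652, and miR-1231 at chr1:201808615-201808634 on the plus strand, within the bounds of NAV1. miR-3185 lies at chr17:48724446-48724468 on the minus strand, within the bounds of PRAC2, beside the HOXB genes. miR-498 lies at chr19:53674230-53674252 on the plus strand, in the primate-specific miRNA cluster of chromosome 19. The table used gives gene bounds only, so exon and intron are not stated.

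Some of the miRNAs on the higher side belong to families of which only a part of the detected members passed. The sequences below show how close the members of such families are.
let-7f-5p: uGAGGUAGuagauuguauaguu
let-7a-5p: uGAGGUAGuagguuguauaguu
miR-181d-5p: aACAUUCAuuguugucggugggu
miR-181b-5p: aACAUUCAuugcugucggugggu
miR-17-5p: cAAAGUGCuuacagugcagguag
miR-20a-5p: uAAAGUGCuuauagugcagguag
miR-20b-5p: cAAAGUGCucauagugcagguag
miR-18b-5p: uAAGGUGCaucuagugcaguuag
miR-19a-3p: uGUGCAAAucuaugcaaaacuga
miR-15a-5p: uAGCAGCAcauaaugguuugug
miR-15b-5p: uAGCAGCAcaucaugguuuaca
miR-221-3p: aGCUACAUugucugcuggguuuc
miR-222-3p: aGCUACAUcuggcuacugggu
Counted from 1 at the 5′ end, let-7f-5p differs from let-7a-5p by G12A alone, with let-7a-5p as the first of the pair, and miR-181d-5p differs from miR-181b-5p by C12U alone, with miR-181b-5p as the first. miR-20b-5p differs from miR-17-5p by U10C and C12U, with miR-17-5p as the first. Arrays read such near-identical miRNAs by hybridization, and the share of each signal that comes from a relative was not measured. let-7f-5p has copies at chr9:94176353-94176374 on the plus strand, in the host transcript MIRLET7A1HG with a let-7a copy, and on chromosome X within the bounds of HUWE1. miR-181d-5p lies at chr19:13874910-13874932 on the plus strand, within the bounds of NANOS3. miR-17-5p and miR-19a-3p lie in the host transcript MIR17HG on chromosome 13, miR-20b-5p and miR-18b-5p in MIR106AHG on chromosome X, and miR-221-3p and miR-222-3p in MIR222HG on chromosome X.

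Of the miRNAs of at least 70% GC, 31 of 52 were lower with LINC00324 silencing than with LOC400043 silencing. The higher ones included single members of several families, among them let-7f-5p, miR-20b-5p, miR-18b-5p and miR-15b-5p. In limma with Benjamini-Hochberg adjustment over all 322 miRNAs, 81 passed at 0.05 (25.2%), 34 of them higher (10.6%) and 47 lower (14.6%), and 115 had an unadjusted p under 0.05. All 4 LINC00324 arrays lay outside the range of all 4 LOC400043 arrays for 77 miRNAs (23.9%), above it for 31 (9.63%) and below it for 46 (14.3%). Of the 81 that passed, 63 had non-overlapping arrays, 25 higher and 38 lower. The sign was the same in all 4 pairings of a LINC00324 siRNA with a LOC400043 siRNA for 73 of them, 31 higher and 42 lower. The lower differences were the larger ones: 32 of the 47 were at least 2-fold, against 2 of the 34 higher ones. Over all 322 the median difference was 0.07.

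The direction followed base composition. Of the 52 detected miRNAs with a GC content of at least 70%, 31 were lower and 1 was higher, with a median difference of −1.03. Of the 116 under 50% GC, 24 were higher and 3 were lower, with a median of 0.23. The 154 between these bounds had 9 higher and 13 lower and a median of 0.06. Across the 322 miRNAs the Spearman correlation of GC content and difference was −0.51, and across the 270 under 70% GC it was −0.34; the miRNAs share the same 8 arrays, and these values describe them without a test.

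**Figure D1:**
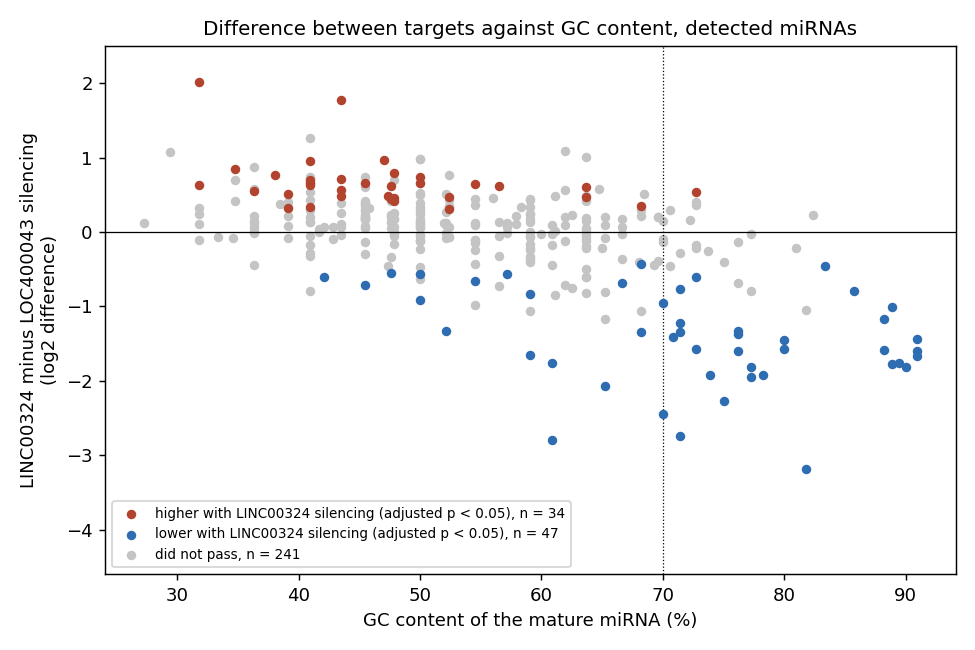
Difference in level, LINC00324 minus LOC400043 silencing (log2, vertical axis), against the GC content of the mature miRNA (percent, horizontal axis) for the 322 detected miRNAs. Each point is 1 miRNA, red for the 34 that passed as higher, blue for the 47 that passed as lower and grey for those that did not pass, and the dotted line marks 70% GC. Right of the line 31 points are blue and 1 is red.

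GC-rich background control probe sets of the arrays, which match no miRNA, moved in the same direction. In the 34 controls at or above 70% GC, the medians were 1.22, 1.27, 1.34 and 1.51 on the LINC00324 arrays, against 2.42, 2.32, 2.01 and 1.89 on the LOC400043 arrays and 2.01 and 1.95 on the scramble arrays. All 34 had a lower mean on the LINC00324 arrays, the arrays did not overlap for 28 of them, and the median difference was −0.82. Control probe sets of 50 to under 70% GC differed by a median of −0.05 (21 probe sets) and those under 50% by 0.00 (40 probe sets). The control values could not be bridged and are compared across the runs as deposited. With the trend of each array against GC content removed, 43 miRNAs passed, 13 higher and 30 lower, of which 36 were among the 81 in the same direction and 1, the probe set shared by miR-1268a and miR-1268b, was among them in the opposite direction. Of the 43, 14 were lower miRNAs of at least 70% GC and 3 were higher miRNAs under 50% GC, against 31 and 24 of the 81. Among the miRNAs named by the rule given with the processing, 22 of 26 higher calls and 6 of 24 lower calls did not pass with the trend removed. The medians were then −0.06 at 70% GC and above, −0.06 under 50% GC and −0.05 over all 322. The trend was fitted on these same 322 miRNAs, so small class medians follow from its removal and are no result. The removal takes out any difference between targets that goes with GC content, whatever its source. What part the background signal has in the differences between targets was not tested beyond these values.

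**Figure D2:**
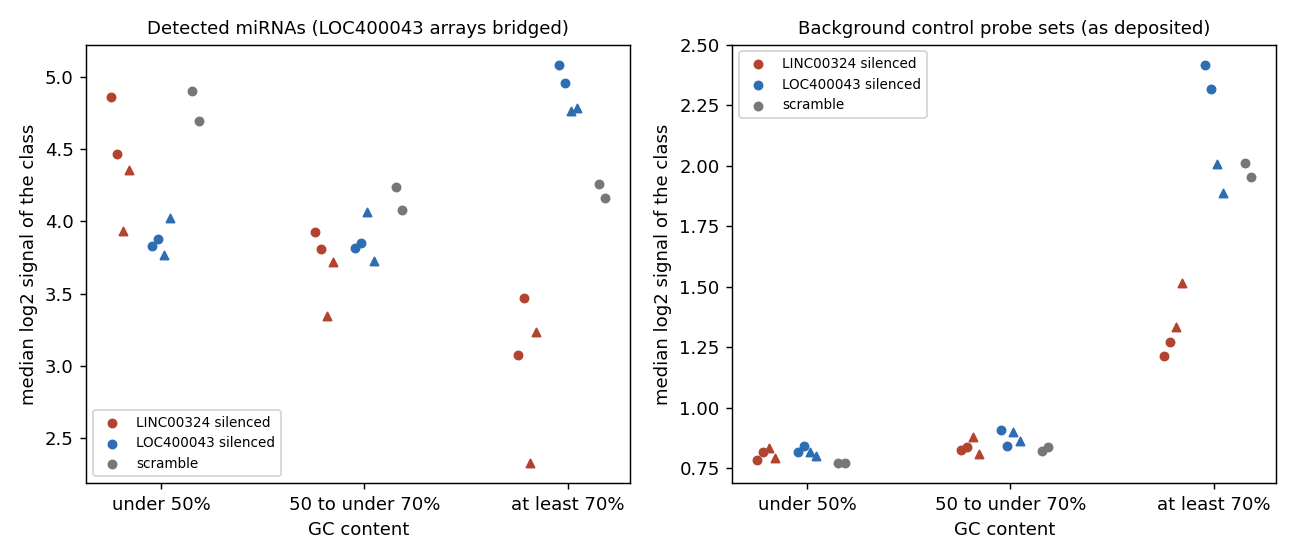
Median log2 signal on each array (vertical axis) by GC class (horizontal axis), for the detected miRNAs at left and the background control probe sets at right. Points are arrays, red for LINC00324 silencing, blue for LOC400043 silencing and grey for scramble, with circles for siRNA 1 or scramble and triangles for siRNA 2. In the class of at least 70% GC all red points lie below all blue points in both panels.

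The largest lower difference was that of miR-1909-3p (81.8% GC). It read 2.38, 3.09, 2.15 and 2.86 on the LINC00324 arrays, against 6.15, 6.35, 5.50 and 5.22 on the LOC400043 arrays and 4.43 and 5.19 on the scramble arrays, where the first pair of each target is siRNA 1 and the second siRNA 2, in the text throughout. The LINC00324 arrays were the lowest, the LOC400043 arrays the highest, and no array of 1 target reached the other. The difference was −3.19 (SE 0.26, adjusted p = 0.000283), a 9.12-fold lower level with LINC00324 silencing, and it ranged from −3.75 to −2.63 over the 4 pairings of siRNAs. It was −2.19 (adjusted p = 0.00324) with the GC trend removed. The other arm of the same hairpin, miR-1909-5p, had a difference of −1.22 (SE 0.31, adjusted p = 0.029); 2 LINC00324 arrays lay under the floor, so the level was lower by at least 1.02 when those arrays are set to the floor.

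miR-3188 (60.9% GC) read 2.60, 2.86, 2.56 and 3.70 on the LINC00324 arrays, against 5.96, 6.24, 5.12 and 5.61 on the LOC400043 arrays and 3.27 and 4.18 on the scramble arrays. The LOC400043 arrays stood above all others, the scramble arrays overlapped the LINC00324 range, and the difference was −2.80 (SE 0.31, adjusted p = 0.000856). miR-1910-5p (71.4% GC) read 2.61, 3.96, 1.51 and 3.97 on the LINC00324 arrays, against 6.06, 6.08, 5.48 and 5.42 on the LOC400043 arrays and 4.89 and 5.27 on the scramble arrays. Its LINC00324 arrays spread widely, with replicate 1 of siRNA 2 lowest, yet stayed below every LOC400043 array, and the difference was −2.75 (SE 0.55, adjusted p = 0.0129). miR-1231 (70% GC) read 4.38, 4.31, 4.01 and 5.17 on the LINC00324 arrays, against 7.44, 7.04, 6.63 and 6.54 on the LOC400043 arrays and 6.15 and 6.05 on the scramble arrays. The targets did not overlap, with a difference of −2.44 (SE 0.25, adjusted p = 0.000726).

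miR-3187-3p (75% GC, within the bounds of PLPPR3) read 3.70, 3.72, 1.87 and 3.40 on the LINC00324 arrays, against 5.75, 5.62, 5.12 and 5.25 on the LOC400043 arrays and 4.49 and 4.50 on the scramble arrays. All LINC00324 arrays were below scramble and all LOC400043 arrays above it, and the difference was −2.27 (SE 0.31, adjusted p = 0.00231). miR-3185 (65.2% GC), which has a higher signal, read 7.35, 7.24, 7.49 and 7.80 on the LINC00324 arrays, against 9.79, 10.00, 9.15 and 9.19 on the LOC400043 arrays and 8.45 and 8.96 on the scramble arrays. The arrays of a target lay close together, and the difference was −2.06 (SE 0.15, adjusted p = 0.000235), a 4.18-fold lower level. With the GC trend removed miR-3185 still differed by −1.87 (adjusted p = 0.00187) and miR-3188 by −2.77 (adjusted p = 0.00324).

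Both miRNAs with the seed GGGGCGG were lower. With GC contents of 77.3% and 88.9% they belong to the class of at least 70% GC, where 31 of 52 were lower with a median of −1.03. miR-3180-3p read 4.11, 4.96, 4.12 and 5.28 on the LINC00324 arrays, against 6.84, 6.90, 6.10 and 5.88 on the LOC400043 arrays and 6.28 and 6.32 on the scramble arrays, with a difference of −1.81 (SE 0.29, adjusted p = 0.00517). miR-3196 read 9.31, 9.70, 9.54 and 9.65 on the LINC00324 arrays, against 11.66, 11.62, 11.18 and 10.85 on the LOC400043 arrays and 10.71 and 10.72 on the scramble arrays, with a difference of −1.78 (SE 0.13, adjusted p = 0.000235). In both, every LINC00324 array was below every LOC400043 array. The pair with the seed GGCGGGG, miR-1908-5p (−1.60, adjusted p = 0.00064) and miR-663a (−1.44, adjusted p = 0.000785), was also lower. Both were chosen for this shared seed after their values were seen. Their values with the GC trend removed or without 1 array are not given here. Among other miRNAs of at least 70% GC, miR-1225-5p, a mirtron of PKD1 that is spliced out as a short intron, differed by −1.95 (SE 0.35, adjusted p = 0.00795), miR-3197 by −1.93 (SE 0.45, adjusted p = 0.0209), miR-602 by −1.93 (SE 0.45, adjusted p = 0.0209) and miR-1915-3p by −1.81 (SE 0.14, adjusted p = 0.000249). Of these, miR-3197 passed in 5 of 10 and miR-602 in 6 of 10 fits that each left out 1 array, while miR-1225-5p and miR-1915-3p passed in all 10. With the GC trend removed miR-3180-3p still passed, at −1.04 (adjusted p = 0.0446), and so did miR-3196, at −0.43 (adjusted p = 0.032). The calls were then lost for miR-1915-3p at −0.41 (adjusted p = 0.078), miR-1225-5p at −1.18 (adjusted p = 0.0628), miR-3197 at −1.32 (adjusted p = 0.106) and miR-602 at −1.11 (adjusted p = 0.147). miR-1915-5p, the other arm of its hairpin, differed by 0.40 (SE 0.15, adjusted p = 0.111) and did not pass. It was 0.94 (adjusted p = 0.00775) with the GC trend removed, where it passed as higher, and −0.05 (adjusted p = 0.842) without the bridge.

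**Figure D3:**
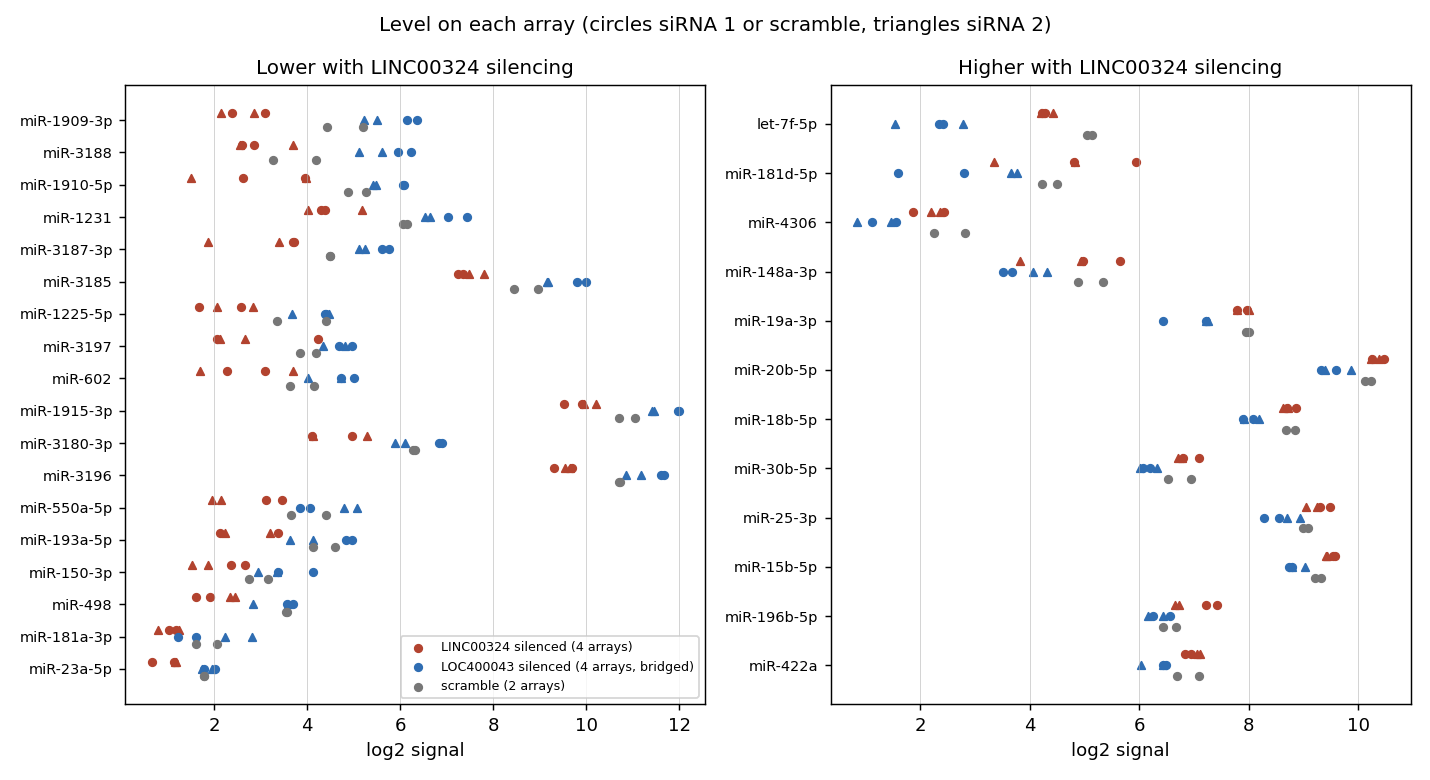
Log2 signal (horizontal axis) on each array of the miRNAs with the largest passing differences that had the same sign in all 4 pairings of siRNAs, lower with LINC00324 silencing at left and higher at right. Red points are LINC00324 arrays, blue points LOC400043 arrays and grey points scramble arrays. For let-7f-5p and miR-1909-3p, at the top of the panels, red and blue points do not overlap.

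Under 70% GC, 16 miRNAs were lower, miR-3188 and miR-3185 among them, and 33 higher, and the lower ones included several that kept their size when the GC trend was removed. miR-550a-5p (60.9% GC) read 3.12, 3.45, 1.96 and 2.16 on the LINC00324 arrays, against 4.05, 3.84, 4.78 and 5.06 on the LOC400043 arrays and 4.40 and 3.64 on the scramble arrays. The LINC00324 siRNA 2 arrays were lowest and the LOC400043 siRNA 2 arrays highest, with no overlap, and the difference was −1.76 (SE 0.20, adjusted p = 0.000856). miR-193a-5p read 3.37, 2.12, 2.24 and 3.20 on the LINC00324 arrays, against 4.83, 4.96, 4.13 and 3.64 on the LOC400043 arrays and 4.12 and 4.61 on the scramble arrays. Only 1 array, replicate 2 of LOC400043 siRNA 2, came near the LINC00324 range, and the difference was −1.66 (SE 0.34, adjusted p = 0.0144). miR-550a-3p, the other arm of miR-550a, differed by 0.18 (SE 0.39, adjusted p = 0.792) and did not pass.

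miR-498, from the chromosome 19 cluster that is known for its expression in placenta, read 1.92, 1.61, 2.45 and 2.34 on the LINC00324 arrays, against 3.69, 3.56, 2.84 and 3.59 on the LOC400043 arrays and 3.55 and 3.57 on the scramble arrays. The LOC400043 arrays were near scramble apart from replicate 1 of siRNA 2, the LINC00324 arrays were lower, and the difference was −1.34 (SE 0.18, adjusted p = 0.00231). miR-150-3p, the lesser arm of the lymphocyte miRNA miR-150, read 2.37, 2.65, 1.87 and 1.52 on the LINC00324 arrays, against 4.13, 3.38, 3.34 and 2.94 on the LOC400043 arrays and 3.16 and 2.76 on the scramble arrays. Its targets did not overlap, and it differed by −1.35 (SE 0.22, adjusted p = 0.00517). With the GC trend removed the differences were −1.73 (adjusted p = 0.00324) for miR-550a-5p, −1.68 (adjusted p = 0.0196) for miR-193a-5p, −1.52 (adjusted p = 0.00327) for miR-498 and −1.02 (adjusted p = 0.02) for miR-150-3p. These 4 miRNAs passed in all 10 fits that left out 1 array. miR-498 was the single detected member of the 11 listed for its cluster; miR-1323, encoded beside it, was not on the list and did not pass.

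Some calls rest on arrays under the floor. For 5 lower and 3 higher calls all 4 arrays of the lower target lay under it, so the miRNA entered the test only through the arrays where it is high, and the call is no support for a difference. Among them, miR-23a-5p was at −0.83, at −0.29 (adjusted p = 0.2) without the bridge between runs, and miR-181a-3p at −0.91, with 1 LOC400043 array under the floor too. miR-23a-5p is the lesser arm of miR-23a, and miR-23a-3p, the main arm, differed by 0.20 (SE 0.10, adjusted p = 0.207) and did not pass. In all, 14 of the 81 had arrays of the lower target under the floor.

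On the higher side the largest difference was that of let-7f-5p. The let-7 family, with the seed GAGGUAG, holds back growth by repressing RAS genes, HMGA2 and LIN28. let-7f-5p read 4.28, 4.23, 4.41 and 4.21 on the LINC00324 arrays, against 2.35, 2.42, 1.53 and 2.77 on the LOC400043 arrays and 5.05 and 5.14 on the scramble arrays. The LOC400043 arrays were lowest, the LINC00324 arrays lay between them and scramble with almost no spread, and the targets did not overlap. The difference was 2.02 (SE 0.26, adjusted p = 0.00182), a 4.05-fold higher level with LINC00324 silencing, and it ranged from 1.88 to 2.16 over the pairings of siRNAs. It passed in all 10 fits that left out 1 array and was 1.58 (adjusted p = 0.00404) with the GC trend removed. let-7a-5p read 8.26, 8.11, 7.98 and 7.83 on the LINC00324 arrays, against 7.53, 7.32, 7.35 and 7.75 on the LOC400043 arrays and 8.07 and 7.97 on the scramble arrays. Its LINC00324 arrays were at the scramble level and just above the LOC400043 arrays, with a difference of 0.56 (SE 0.13, adjusted p = 0.0209), which passed in 6 of 10 such fits (adjusted p up to 0.0707). Of 8 detected let-7 members these 2 were higher and none was lower, with a list median of 0.42 (0.11 with the GC trend removed). Over all tested, 10.6% were higher and 14.6% lower, with a median of 0.07. The let-7 list had a median GC content of 40.9%. Of the 116 miRNAs under 50% GC, 24 were higher and 3 lower, with a median of 0.23, and the let-7 count lay near that share. let-7a-5p was 0.16 (adjusted p = 0.293) with the GC trend removed, and with siRNA as a random block its adjusted p was 0.0604. let-7e-5p, at −0.32 (SE 0.11, adjusted p = 0.0854), did not pass, but was lower with the GC trend removed, at −0.66 (adjusted p = 0.0243).

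The miR-17 clusters and their paralogs repress cell cycle inhibitors such as CDKN1A. Of 18 detected members, 6 were higher and 1 was lower, against 10.6% and 14.6% of all tested. Under 50% GC 24 of 116 were higher and 3 lower, and the list had a median GC content of 48.9%. Its median difference was 0.19, which turned to −0.05 with the GC trend removed. miR-20b-5p read 10.48, 10.26, 10.38 and 10.23 on the LINC00324 arrays, against 9.60, 9.33, 9.39 and 9.87 on the LOC400043 arrays and 10.23 and 10.12 on the scramble arrays. The LOC400043 arrays were all below scramble, the LINC00324 arrays at or above it, and the difference was 0.79 (SE 0.15, adjusted p = 0.00938). miR-18b-5p, from the same cluster on chromosome X, read 8.87, 8.70, 8.72 and 8.63 on the LINC00324 arrays, against 8.09, 7.89, 7.91 and 8.18 on the LOC400043 arrays and 8.84 and 8.68 on the scramble arrays. Its LINC00324 arrays lay near scramble, its LOC400043 arrays were lower without overlap, and the difference was 0.71 (SE 0.12, adjusted p = 0.00604). Both passed in all 10 fits that left out 1 array and with the GC trend removed, at 0.53 (adjusted p = 0.0448) and 0.40 (adjusted p = 0.0448).

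From the cluster on chromosome 13, miR-19a-3p read 7.97, 7.78, 8.01 and 7.78 on the LINC00324 arrays, against 7.22, 6.44, 7.23 and 7.25 on the LOC400043 arrays and a mean of 7.98 on the scramble arrays. Replicate 2 of LOC400043 siRNA 1 stood far below the other LOC400043 arrays, and the difference was 0.85 (SE 0.18, adjusted p = 0.0154). miR-17-5p read 12.89, 12.84, 12.77 and 12.73 on the LINC00324 arrays, against 12.44, 12.39, 12.38 and 12.37 on the LOC400043 arrays and 12.87 and 12.86 on the scramble arrays. The LOC400043 arrays were lower by a small and even step, with a difference of 0.41 (SE 0.09, adjusted p = 0.0154), which passed in 7 of 10 fits that left out 1 array. It was 0.10 (adjusted p = 0.457) without the bridge, 0.14 (adjusted p = 0.308) with quantile normalization and 0.16 (adjusted p = 0.265) with the GC trend removed. miR-20a-5p differed by 0.32 (SE 0.09, adjusted p = 0.035). In this cluster 3 of 10 detected members were higher and none was lower, against 10.6% and 14.6% of all tested. Under 50% GC, 24 of 116 were higher and 3 lower. miR-19a-3p did not pass with the GC trend removed, at 0.44 (adjusted p = 0.138). miR-20a-5p passed in 1 of 10 fits that left out 1 array and turned to −0.04 (adjusted p = 0.84) with the GC trend removed. miR-106a-5p, which differs from miR-17-5p by A1C with miR-106a-5p as the first, did not pass at 0.25 (SE 0.09, adjusted p = 0.0953).

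In the third cluster, on chromosome 7 within MCM7, the arms of one hairpin had calls of opposite sign. miR-25-3p, the main arm, read 9.49, 9.31, 9.26 and 9.05 on the LINC00324 arrays, against 8.55, 8.27, 8.70 and 8.93 on the LOC400043 arrays and 9.08 and 8.99 on the scramble arrays. It was higher without overlap, by 0.66 (SE 0.12, adjusted p = 0.00944). The lesser arm, miR-25-5p, read 6.36, 6.26, 6.21 and 6.02 on the LINC00324 arrays, against 6.15, 6.45, 7.27 and 7.27 on the LOC400043 arrays and 5.84 and 5.47 on the scramble arrays. Among the silenced arrays the LOC400043 siRNA 2 pair stood highest, and the difference was −0.57 (SE 0.13, adjusted p = 0.0206), ranging from −1.15 to 0.01 over the pairings. It passed in 6 of 10 fits that left out 1 array and not with siRNA as a random block (adjusted p = 0.231). miR-25-3p was 0.44 (adjusted p = 0.0583) with the GC trend removed.

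The miR-15 and miR-16 family, which represses BCL2 and D-type cyclins, had 3 higher and 0 lower of 7 detected. This compares with 10.6% and 14.6% of all tested, and with 24 and 3 of the 116 under 50% GC. The list had a median GC content of 42.9% and a median difference of 0.63 (0.31 with the GC trend removed). miR-15b-5p read 9.58, 9.55, 9.41 and 9.43 on the LINC00324 arrays, against 8.74, 8.79, 8.79 and 9.03 on the LOC400043 arrays and 9.31 and 9.22 on the scramble arrays. All LINC00324 arrays were above both scramble arrays and all LOC400043 arrays below them, with a difference of 0.65 (SE 0.10, adjusted p = 0.00431). miR-15a-5p read 8.11, 8.04, 8.23 and 8.25 on the LINC00324 arrays, against 7.33, 7.13, 7.71 and 7.94 on the LOC400043 arrays and 7.81 and 7.88 on the scramble arrays. The LOC400043 siRNA 2 arrays came close to the LINC00324 arrays without reaching them, and the difference was 0.63 (SE 0.11, adjusted p = 0.00609). miR-503-5p differed by 0.62 (SE 0.17, adjusted p = 0.0371) and passed in 4 of 10 fits that left out 1 array. miR-16-5p, the family member made from the same transcripts as miR-15a and miR-15b, differed by 0.17 (SE 0.09, adjusted p = 0.232) and did not pass. With the GC trend removed miR-15a-5p was 0.29 (adjusted p = 0.0837), miR-15b-5p 0.31 (adjusted p = 0.078) and miR-16-5p −0.12 (adjusted p = 0.432).

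miR-221 and miR-222, repressors of the cell cycle inhibitor CDKN1B and of KIT, had a median difference of 0.47 (0.25 with the GC trend removed). Of 4 detected arms 3 were higher, against 10.6% of all tested. The list had a median GC content of 48.9%. Under 50% GC, where miR-221-3p lies, 24 of 116 were higher. At 50 to under 70% GC, where miR-222-5p and miR-222-3p lie, 9 of 154 were higher. With siRNA as a random block none of the 3 passed (adjusted p = 0.0834 for miR-221-3p, 0.0614 for miR-222-3p and 0.206 for miR-222-5p). miR-221-3p read 11.16, 11.39, 11.04 and 10.97 on the LINC00324 arrays, against 10.48, 10.68, 10.83 and 10.75 on the LOC400043 arrays and 10.87 and 10.77 on the scramble arrays, with a difference of 0.46 (SE 0.11, adjusted p = 0.0209). miR-222-3p read 11.14, 11.19, 10.86 and 10.88 on the LINC00324 arrays, against 10.35, 10.50, 10.66 and 10.66 on the LOC400043 arrays and 10.70 and 10.75 on the scramble arrays, with a difference of 0.47 (SE 0.09, adjusted p = 0.0118). The LINC00324 arrays were above the LOC400043 arrays for both, which share the seed GCUACAU. miR-222-5p differed by 0.74 (SE 0.13, adjusted p = 0.00624), but with LINC00324 siRNA 1 high and LOC400043 siRNA 1 low, so that the pairings ran from −0.15 to 1.63. miR-221-3p was 0.20 (adjusted p = 0.245) and miR-222-3p 0.30 (adjusted p = 0.0769) with the GC trend removed, and without the bridge miR-222-5p was 0.24 (adjusted p = 0.232). miR-221-5p, named here after its value was seen, was at −0.45 (SE 0.21, adjusted p = 0.192) and did not pass, but was lower with the GC trend removed, at −0.84 (adjusted p = 0.0232).

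The miR-181 family, known in lymphocyte development, had members on both sides. miR-181d-5p read 4.81, 5.95, 3.34 and 4.83 on the LINC00324 arrays, against 1.59, 2.80, 3.77 and 3.65 on the LOC400043 arrays and 4.50 and 4.22 on the scramble arrays. Its LOC400043 siRNA 1 arrays were lowest, the LINC00324 and LOC400043 siRNA 2 arrays overlapped, and the difference was 1.78 (SE 0.44, adjusted p = 0.024). It passed in 4 of 10 fits that left out 1 array. Of the other 5p members with the same seed, miR-181a-5p was at −0.03 (SE 0.14, adjusted p = 0.884), while miR-181b-5p was at 0.26 (SE 0.13, adjusted p = 0.222), and neither passed. The lesser arms miR-181a-3p and miR-181a-2-3p, from separate hairpins, were the 2 lower calls of 6 detected members, against 1 higher. Over all tested, 14.6% were lower and 10.6% higher. The call of miR-181a-3p is among those with all LINC00324 arrays under the floor and is no support for a difference. The median of the list was 0.11, which turned to −0.15 with the GC trend removed and to −0.02 without the bridge between runs. With siRNA as a random block none of these 3 passed (adjusted p = 0.126 for miR-181d-5p, 0.128 for miR-181a-3p and 0.55 for miR-181a-2-3p).

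Further higher miRNAs came from lists with 1 or 2 higher calls each, against 10.6% higher over all tested and 24 of 116 under 50% GC. The miR-30, HOX cluster and miR-103 lists, with median GC contents of 45.5%, 43.5% and 40.9%, lay near the share of that GC class. Of the miR-30 family 2 of 8 were higher and none lower, with a median of 0.44: miR-30b-5p differed by 0.70 (SE 0.15, adjusted p = 0.0154) and miR-30c-5p by 0.57 (SE 0.14, adjusted p = 0.0238). miR-10a-5p and miR-196b-5p, encoded among the HOX genes that they are known to repress, were higher by 0.49 (SE 0.10, adjusted p = 0.0154) and 0.65 (SE 0.13, adjusted p = 0.0137), the 2 that passed of 8 detected HOX cluster miRNAs (median 0.24). In a list that joins the miR-26 and miR-148 families with miR-103 and miR-107, 2 of 7 were higher, miR-148a-3p, a repressor of DNMT1, by 0.95 (SE 0.28, adjusted p = 0.0494) and miR-26a-5p, a repressor of EZH2, by 0.33 (SE 0.09, adjusted p = 0.0416) (median 0.22). miR-320d differed by 0.48 (SE 0.11, adjusted p = 0.0206), the 1 of 5 miR-320 members that passed (median 0.37). With the GC trend removed the medians were 0.17 for the miR-30 family, 0.01 for the HOX cluster miRNAs, −0.04 for the group with miR-103 and 0.22 for the miR-320 family. The calls of miR-30b-5p (adjusted p = 0.147), miR-30c-5p (0.181), miR-10a-5p (0.256) and miR-196b-5p (0.149) were then lost. So were those of miR-148a-3p (0.207), miR-26a-5p (0.956) and miR-320d (0.241). miR-320d passed in 5 of 10 and miR-30c-5p in 4 of 10 fits that left out 1 array. With quantile normalization miR-320d did not pass (adjusted p = 0.077). Of the miR-183 cluster, a set of sensory cell miRNAs, miR-96-5p alone of 4 was called, at 0.51, with all LOC400043 arrays under the floor, which makes it 1 of the 8 calls that rest on such arrays. miR-422a, with the seed of miR-378, was higher by 0.64 (SE 0.14, adjusted p = 0.0173), and miR-4306, with the seed of miR-185, by 0.97 (SE 0.23, adjusted p = 0.0209). For miR-4306, 2 LOC400043 arrays lay under the floor and the level was higher by at least 0.81 when those arrays are set to the floor. miR-4306 passed in 5 of 10 and miR-422a in 8 of 10 fits that left out 1 array. Neither passed with the GC trend removed, at 0.70 (adjusted p = 0.106) for miR-4306 and 0.51 (adjusted p = 0.0653) for miR-422a. With quantile normalization miR-422a did not pass either (adjusted p = 0.0588).

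No member passed in the miR-130, miR-301 and miR-454 family (2 detected, median 0.20), the miR-99, miR-100 and miR-125 families (6 detected, median 0.01) or the miR-29 family (2 detected, median 0.37). In the clusters of miR-23, miR-24 and miR-27, miR-23a-5p alone of 7 was called, as lower and with all LINC00324 arrays under the floor (median −0.06). In the imprinted cluster at 14q32, miR-323a-5p alone of 3 was called, at −0.60 (median −0.60), with all 4 LINC00324 arrays under the floor, another of the 8 calls that rest on such arrays. Its value was −0.06 (adjusted p = 0.763) with the GC trend removed, and the median of the list −0.06. Over all tested, 14.6% were lower and 10.6% higher.

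**Figure D4:**
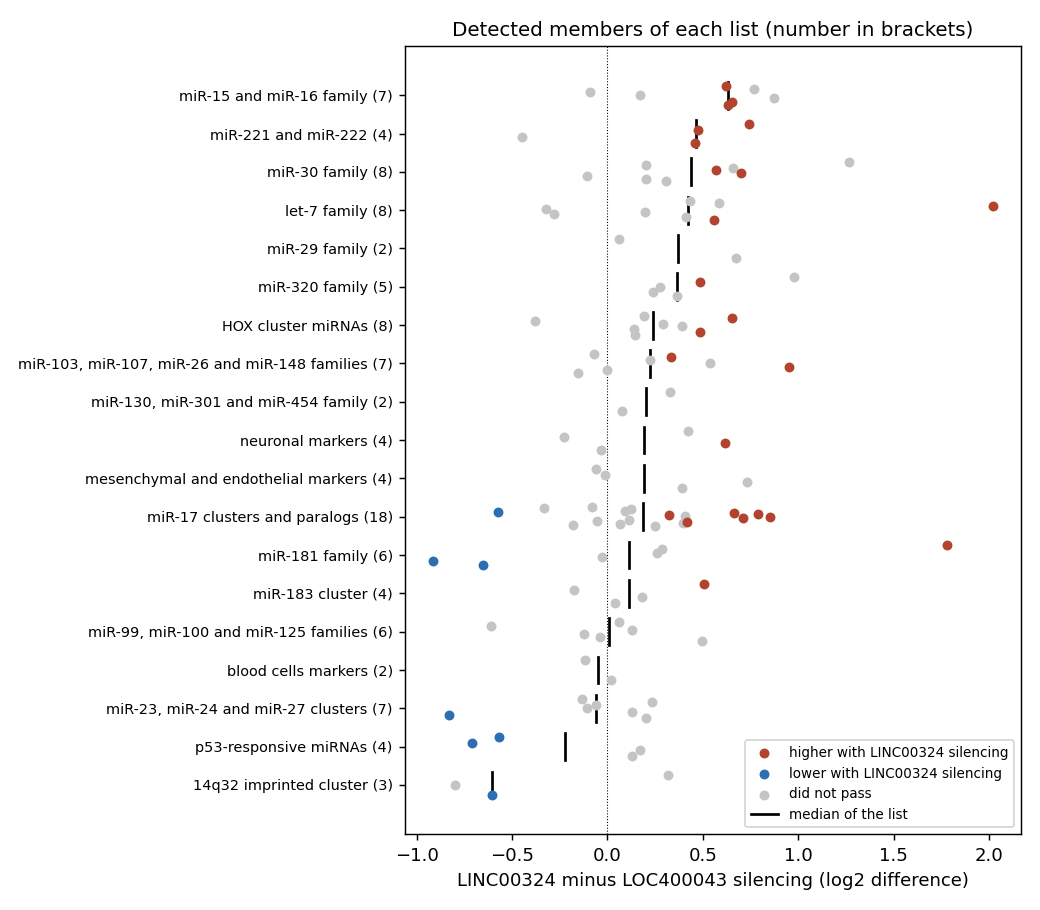
Difference in level, LINC00324 minus LOC400043 silencing (log2, horizontal axis), of the detected members of each list with at least 2 detected. Each point is 1 miRNA, red for higher, blue for lower and grey for not passing, and the black bar is the median of the list. The miR-15 and miR-16 family has the highest median (0.63) and the 14q32 cluster the lowest (−0.60).

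For some miRNAs the siRNAs of 1 target differed as much as the targets did. miR-34a-5p, which p53 induces and which represses cell cycle genes, read 6.16, 6.65, 7.07 and 7.09 on the LINC00324 arrays, against 8.03, 7.98, 6.79 and 6.46 on the LOC400043 arrays and 7.90 and 7.81 on the scramble arrays. The LOC400043 siRNA 1 arrays were at scramble and the siRNA 2 arrays within the LINC00324 range, so the targets overlapped. The difference was −0.57 (SE 0.14, adjusted p = 0.0258), ranging from −1.60 to 0.46 over the pairings of siRNAs. miR-34a-3p followed the same order, with a difference of −0.71 (SE 0.19, adjusted p = 0.0323) and pairings from −2.24 to 0.82. Each arm passed in 3 of 10 fits that left out 1 array, and neither passed with siRNA as a random block (adjusted p = 0.434 for miR-34a-5p and 0.512 for miR-34a-3p). Of 4 detected p53-responsive miRNAs these 2, the arms of 1 hairpin, were lower and none was higher (median −0.22). Over all tested, 14.6% were lower and 10.6% higher. miR-181a-2-3p read 2.22, 1.55, 1.64 and 1.10 on the LINC00324 arrays, against 1.22, 1.19, 3.34 and 3.39 on the LOC400043 arrays and 2.56 and 2.61 on the scramble arrays. The LOC400043 siRNA 1 arrays were below the floor and the siRNA 2 arrays above every other array, with a difference of −0.65 (SE 0.18, adjusted p = 0.0416) and pairings from −1.99 to 0.68. A LINC00324 array lay under the floor as well, so no bound on the difference is given.

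Markers of other cell types gave little, where 25.2% of all tested miRNAs passed. None of 5 muscle and none of 8 pluripotency miRNAs on the array was detected, and no detected member passed among liver (1), blood cell (2), epithelial (1) or mesenchymal and endothelial (4) markers. Of 4 detected neuronal markers 1 passed, miR-128-3p, a brain-enriched miRNA, at 0.62 (SE 0.14, adjusted p = 0.0203); it read 5.91, 6.29, 6.18 and 5.98 on the LINC00324 arrays, against 5.48, 5.30, 5.49 and 5.62 on the LOC400043 arrays and 5.88 and 6.20 on the scramble arrays. Its LOC400043 arrays were lower without overlap, and it passed in 6 of 10 fits that left out 1 array. It did not pass with the GC trend removed, at 0.36 (adjusted p = 0.135), or without the bridge, at 0.39 (adjusted p = 0.0909). miR-126-3p, an endothelial miRNA, differed by 0.73 (SE 0.23, adjusted p = 0.0582) and did not pass. A label of kidney origin has no single defining miRNA among these lists, so the cell type was checked only by what was not detected.

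The miRNAs differed in which target lay away from scramble; the values are given side by side, since both comparisons use the same 2 scramble arrays. For miR-1909-3p the difference from scramble was −2.19 (SE 0.32) with LINC00324 silencing and 0.99 (SE 0.32) with LOC400043 silencing. For let-7f-5p it was −0.81 (SE 0.31) with LINC00324 silencing and −2.83 (SE 0.31) with LOC400043 silencing, so both targets were below scramble. miR-498 was at −1.48 (SE 0.22) with LINC00324 silencing and −0.14 (SE 0.22) with LOC400043 silencing. miR-3188 was at −0.80 (SE 0.38) with LINC00324 silencing and 2.00 (SE 0.38) with LOC400043 silencing. For miR-18b-5p the values were −0.03 (SE 0.14) with LINC00324 silencing and −0.75 (SE 0.14) with LOC400043 silencing, and for miR-20b-5p 0.16 (SE 0.18) with LINC00324 silencing and −0.63 (SE 0.18) with LOC400043 silencing. The 52 miRNAs of at least 70% GC had medians of −0.70 with LINC00324 silencing and 0.39 with LOC400043 silencing. The 116 under 50% GC had medians of −0.03 with LINC00324 silencing and −0.31 with LOC400043 silencing.

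**Figure D5:**
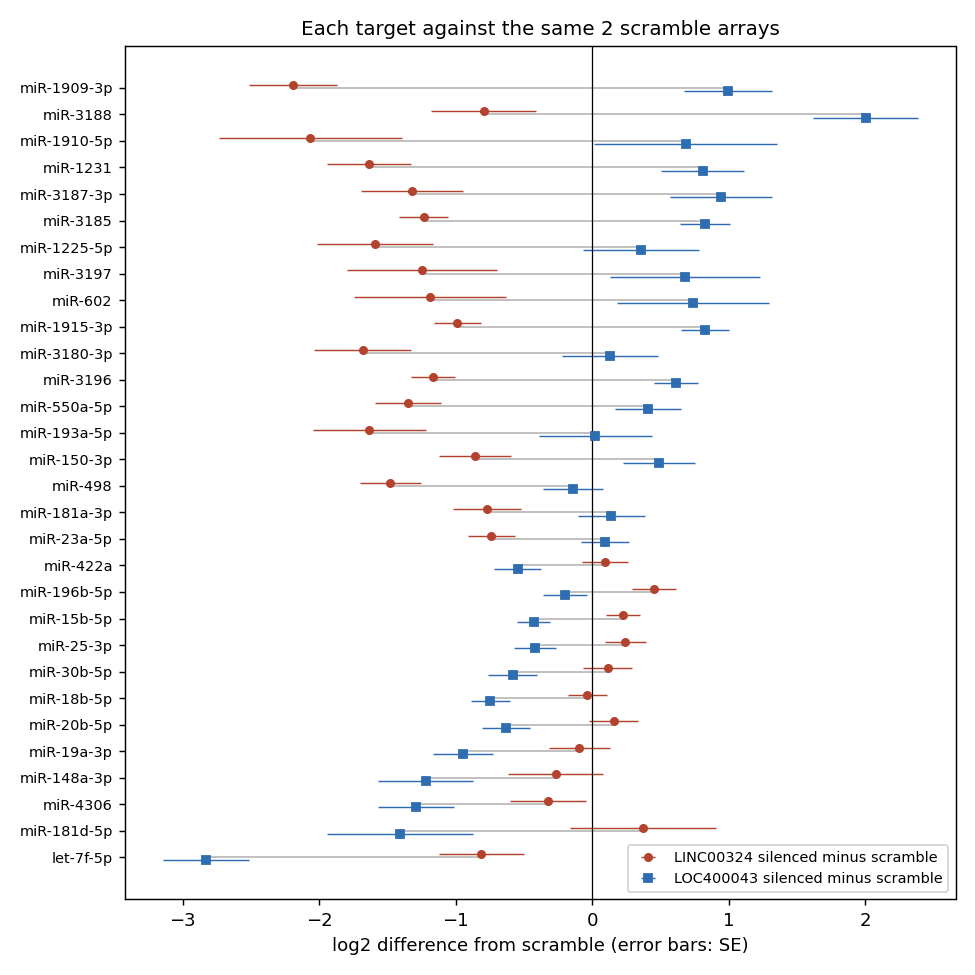
Change from scramble (log2, horizontal axis) with LINC00324 silencing (red circles) and LOC400043 silencing (blue squares) for the miRNAs with the largest differences between targets. Error bars are SE and both changes of a miRNA use the same 2 scramble arrays. For let-7f-5p both points lie left of 0, and for miR-1909-3p they lie on either side of it.

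How far single arrays carried the calls differed between miRNAs. Of the 50 miRNAs that passed and were named by the rule given with the processing, 25 passed in all 10 fits that left out 1 array. The other 25 lost the call without at least 1 array. Without replicate 1 of LINC00324 siRNA 2 alone, miR-10a-5p (adjusted p = 0.0522) and miR-19a-3p (adjusted p = 0.0523) did not pass, and without replicate 1 of LOC400043 siRNA 1 alone, miR-30b-5p did not (adjusted p = 0.0539). Leaving out 1 array of LOC400043 siRNA 1 lost 18 of the 50 calls for replicate 1 and 17 for replicate 2, LOC400043 siRNA 2 lost 16 and 11, LINC00324 siRNA 1 12 and 14, LINC00324 siRNA 2 16 and 9, and scramble 11 and 7. The lowest counts of passing fits were 0 of 10 for miR-26a-5p, 1 of 10 for miR-20a-5p, 1 of 10 for miR-148a-3p, 2 of 10 for miR-1909-5p and 2 of 10 for miR-96-5p. With siRNA as a random block 20 of the 50 were lost. Beside those given above these were miR-10a-5p (adjusted p = 0.0604), miR-148a-3p (0.18), miR-15a-5p (0.0604), miR-1909-5p (0.148), miR-196b-5p (0.0764), miR-20a-5p (0.115), miR-26a-5p (0.231), miR-30c-5p (0.0704), miR-503-5p (0.213) and miR-96-5p (0.208). Without the bridge 10 were lost: miR-128-3p, miR-148a-3p, miR-17-5p, miR-181a-2-3p, miR-20a-5p, miR-222-5p, miR-23a-5p, miR-26a-5p, miR-30c-5p and miR-503-5p.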

How the data were processed

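Total RNA of 10 HEK-293 samples was read on Affymetrix miRNA-2_0 arrays. The authors deposited log2 signals in a value table and in a table of human mature miRNAs for each target. They also deposited log2 differences from scramble, used only as a check: those for LOC400043 were matched within 0.000499. The submitters' processing notes name limma, without a version. How the background was corrected and the arrays normalized and summarized, and on which build, is not given in the sources used here. A further 4 columns of the LOC400043 table matched no sample and were not used, and 20 human mature probe sets without a name were left out.

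Per probe set, the LOC400043 columns were shifted by the scramble mean of the LINC00324 run minus that of the LOC400043 run. limma 3.58.1 in R 4.3.3 (lmFit on 5 group means, eBayes, Benjamini-Hochberg over 322 probe sets) tested the mean of the LINC00324 groups minus that of the LOC400043 groups at an adjusted p of 0.05. The procedure was run on simulated data with known differences and independent noise. These data held no GC trend, no shift between runs and no spread between siRNAs, so they say nothing on how such features affect the calls. Tables and plots were made with Python 3.11.15 and matplotlib 3.10.9. Bounds set arrays under the floor to the floor. GC content is that of the mature sequence.

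The miRNAs named are the 12 largest passing differences in each direction with 1 sign in all 4 siRNA pairings, the 8 largest under 70% GC, up to 3 of the highest and all passing members of each list, and the other arm of these hairpins. Members and lists were chosen with earlier results of these data known. Same-numbered arrays of different groups did not deviate together (correlations between −0.147 and 0.161), so numbers were not taken as pairs. Of the 322, 288 matched a RefSeq entry.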

Additional observations from a re-analysis of the deposited data

Results flagged for a closer look

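For 8 of the named miRNAs every LINC00324 array and every LOC400043 array lay on opposite sides of the scramble arrays, and limma passed the difference between targets. All but 1 were lower with LINC00324 silencing. These were miR-1909-3p (−3.19), miR-1910-5p (−2.75), miR-1231 (−2.44), miR-3187-3p (−2.27), miR-3185 (−2.06), miR-1915-3p (−1.81) and miR-3196 (−1.78). All of these but miR-3185 belong to the class of at least 70% GC, where 31 of 52 were lower. The exception in direction was miR-15b-5p, which was higher (0.65). Outside the set checked, miR-222-3p had the same arrangement and was higher (0.47).

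In 5 of 102 groups of 4 arrays, 1 array stood apart by Dixon's ratio, the gap to its neighbour over the whole range, whose 95% critical value is 0.829; chance gives about 1 in 20. The ratios were 0.960 for miR-19a-3p on the LOC400043 arrays, where replicate 2 of siRNA 1 was low, and 0.922 for miR-23a-5p on the LINC00324 arrays, all of which lay under the floor. On the LOC400043 arrays they were 0.892 for miR-1225-5p, 0.871 for miR-422a and 0.845 for miR-498.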

How the results depend on the processing

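The 81 calls became 47 with siRNA as a random block (12 higher, 35 lower), 43 with each array's GC trend removed, and 55 to 74 when 1 array was left out. Alternatives chosen after seeing the data gave 44 without both LINC00324 siRNA 1 arrays, 84 without both of siRNA 2, 40 without both LOC400043 siRNA 1 arrays and 73 without both of siRNA 2. With replicate number as a block 71 passed, and the numbers do not pair the arrays. The share of higher calls was 42.0% as reported, 28.8% without the bridge between runs, 30.2% with the GC trend removed, 25.5% with the random block and 56.1% with the floor at the 99th percentile. Centring each array on its median moved the median of all miRNAs to 0.22, against 0.07. The 77 of 322 miRNAs with non-overlapping arrays became 50 of the 163 tested with the higher floor and 138 of 1080 with none. Without 1 array they were 78 to 95. Where both arrays of an siRNA were left out, fewer arrays are compared. They were then 118 without LINC00324 siRNA 1, 128 without LINC00324 siRNA 2 and 120 without LOC400043 siRNA 2.

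Of the 50 named calls 15 passed under every alternative run for single miRNAs, and 28 were lost with the GC trend removed, 22 of them higher and 6 lower. Signs turned with the GC trend removed for miR-20a-5p (−0.041) and miR-26a-5p (−0.011), and for the following that had not passed: miR-106a-5p (−0.063), miR-16-5p (−0.12), miR-181b-5p (−0.0011), miR-194-5p (−0.12), miR-196a-5p (−0.052), miR-23a-3p (−0.058), miR-30a-5p (−0.090) and miR-550a-3p (−0.042). Others that had not passed turned without the bridge (miR-1915-5p −0.053, miR-550a-3p −0.0031), with quantile normalization (miR-103a-3p 0.33, miR-106a-5p −0.069) or with median centring (miR-181a-5p 0.12). Without 1 array miR-181a-5p ranged from −0.12 to 0.057 and miR-550a-3p from −0.27 to 0.63. The cause was not tested. With 4 arrays per target and levels near the floor, small differences of dim miRNAs are not resolved.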
